A study of Mus musculus with 7 samples.

Results

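Of 30785 stretches of mouse genome that could be measured with 3 promoters, 1065 (3.46%) gave low reporter output with the SCP1 promoter. With pPGK and pR-Ea the same stretches stayed near or above the level of their input. These 1065 sites low with SCP1 alone are described here. Each is a 500 bp bin of the mm9 genome. A bin was measurable when it held at least 50 input reads in the SCP1, pPGK and pR-Ea files. Activity is the log2 of reporter over input reads, each with 1 added and scaled to its total over the measurable bins. An activity of 0 is therefore the level at which a bin takes the same share of reporter and of input reads, and -1 is 2-fold lower. A member had an activity of -1 or lower with SCP1 and above -0.5 with both other promoters. The members were thus chosen by their measured SCP1, pPGK and pR-Ea activities, which are given as a description with no test.

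The study cloned mouse DNase hypersensitive sites, stretches of open chromatin, into a self-transcribing reporter and put them into P5424, a mouse cell line of immature T cells. Its 7 samples are 4 reporter RNA libraries and 3 inputs, with 1 library in each group. The reporter groups are SCP1, pPGK, pR-Ea, and pPGK with PMA_I in its title, and the inputs belong to SCP1, pPGK and pR-Ea. All 7 samples carry PMA and ionomycin in their treatment label, and which library was stimulated is read from the titles, where PMA_I appears once. All groups share the P5424 line, and no genotype is labelled. The 4 files held from 47985627 to 61551175 reporter reads at usable positions and from 17751405 to 45192674 input reads. Without replicate libraries there is no test and no p-value here, and every difference is one between these libraries.

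In this assay, known as CapStarr-seq, a captured fragment lies inside the transcript whose output it alters, so its own RNA reads over its plasmid reads measure what it does to the promoter. A silencer is an element that lowers output from a promoter, and an enhancer raises it. How an element acts can depend on the core promoter it is paired with. SCP1, the super core promoter 1, is a synthetic core promoter built from strong core elements. pPGK is the promoter of the phosphoglycerate kinase gene, which is active in most cells. The labels do not spell out pR-Ea. No neutral fragment set the zero level. A low activity therefore means a smaller share of reporter than of input reads and is not shown to be silencing. Sequences, gene names and distances to genes are not given, because the gene and promoter tables used here are of build GRCm38.p6 and the files are of mm9.

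Low output with SCP1 was mostly shared with another promoter. SCP1 activity was at or below -1 in 4577 bins (14.9% of all). Of these, 1065 (23.3%) were members and 3512 (76.7%) had pPGK or pR-Ea at or below -0.5. In 1186 others all 3 promoters were at or below -1. A further 352 were low with SCP1 and pPGK but above -0.5 with pR-Ea, and 167 were low with SCP1 and pR-Ea but above -0.5 with pPGK. The rest of the bins low with SCP1 had at least 1 other promoter between -1 and -0.5.

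Among the members, SCP1 activity ran from -4.88 to -1.0 with a median of -1.25. Their pPGK activity ran from -0.50 to 1.46 with a median of 0.00, and their pR-Ea activity from -0.50 to 1.37 with a median of -0.01. The median bin of all those measured was at -0.16 in the SCP1 library, 0.07 in pPGK and -0.02 in pR-Ea, so with the promoters other than SCP1 the median member sat close to the median bin. SCP1 activity was above -1.25 in 532 members. In 273 it was at or below -1.5, in 97 at or below -2, and in 14 at or below -3. SCP1 was at least 1 lower than both other promoters in 687 members and at least 2 lower in 84. Members at or above 0 with both pPGK and pR-Ea numbered 290. At or above 1 were 16 members with pPGK, where 3.85% of all bins were, and 8 with pR-Ea, where 0.858% were; the rule used these values, so nothing is read from them.

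**Figure D1:**
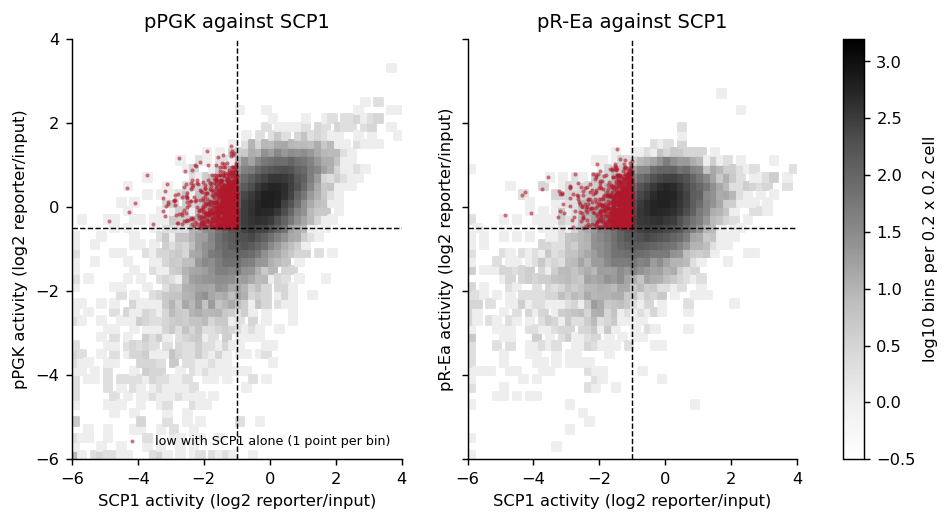
Activity of the measurable bins with pPGK (left) or pR-Ea (right) against activity with SCP1, both as log2 of reporter over input. Grey cells give the log10 number of bins, with values beyond the axes drawn at the edge, red points are the 1065 members, and dashed lines mark the thresholds at -1 and -0.5; the members lie at the low end of SCP1 and at the middle of the other promoter's range.

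The 3 members just inside the SCP1 threshold and the 3 bins just outside it all had an activity of -1.0. Inside were chr4:148526501-148527000 (767 reporter and 1211 input reads), chr4:153467001-153467500 (82 and 130) and chr9:37737501-37738000 (101 and 160). Outside were chr17:35810001-35810500 (110 and 174), chr6:144277501-144278000 (84 and 133) and chr7:16961501-16962000 (124 and 196). The error of these values, from 0.24 to 0.67 as a standard error over distinct read positions (SE), is far larger than the gap between both sides, so membership is not sharp at this edge.

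Reporter reads with SCP1 were few in the members. The median member held 114 SCP1 reporter reads on 25 positions against 232 input reads on 44 positions. Over all bins the medians were 561 reporter and 506 input reads. With pPGK the median member held 321 reporter and 126 input reads, with pR-Ea 308 and 107. Scaled to the library, the median member took 3.21 CPM (reads scaled to the total over measurable bins) of the SCP1 reporter, against 15.80 CPM in the median bin. It took 11.8 against 17.2 CPM with pPGK and 10.3 against 16.3 CPM with pR-Ea. The members were thus below the median bin in these 3 reporter libraries, of which SCP1 is low by the rule.

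Their share of the plasmid inputs was lower than that of the median bin as well, at 8.28 CPM against 18.07 in the SCP1 input, 11.06 against 16.68 in the pPGK input and 9.73 against 17.28 in the pR-Ea input. The members' SCP1 input was lower than their pPGK input by a median of 0.50 on the log2 scale and lower than their pR-Ea input by 0.32. Over all bins the median log2 ratio of SCP1 input to pPGK input was 0.054, and that of SCP1 input to pR-Ea input was -0.058. The members were not all alike in this: 342 had more SCP1 than pPGK input, and 383 more SCP1 than pR-Ea input. Divided by the pPGK input in place of its own, the SCP1 reporter had a median log2 ratio of -1.88 in the members, against -0.14 in all bins. Divided by the pR-Ea input it was -1.61, against -0.22. The SCP1 reporter was at or below -1 over the pPGK input in 813 members, over the pR-Ea input in 799, and over all 3 inputs in 709. The SCP1 reporter reads entered the rule, so these counts describe the members and test nothing.

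Members were found most often where the SCP1 input was thin. In bins with 50 to 99 SCP1 input reads, 170 of 2041 (8.33%) were members, and the share was 6.40% at 100 to 199 reads, 4.41% at 200 to 499 and 2.19% at 500 to 999. In bins of 1000 reads or more it was 0.833%, or 70 of 8408. All bins at or below -1 with SCP1 also became less frequent with depth, from 26.2% to 11.3% between the lowest and the highest of these bands. The median SCP1 activity of the members was -1.44 in the thinnest band and -1.14 in the deepest, and their median SE fell from 0.61 to 0.20. The part of input depth in the membership was not tested.

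**Figure D2:**
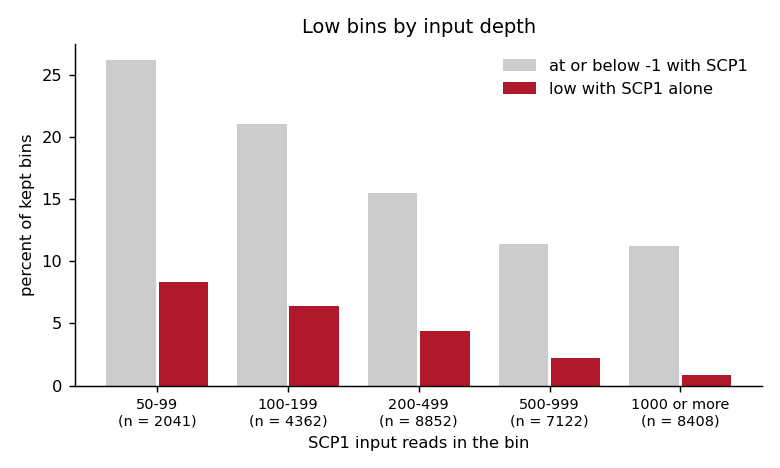
Percent of measurable bins that were at or below -1 with SCP1 (grey) and percent that were low with SCP1 alone (red), in 5 bands of SCP1 input reads, with the number of bins under each band. Both shares are highest at 50 to 99 reads and the members' share falls from 8.33% to 0.833%.

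The 95% normal interval from the SE lay wholly below 0 with SCP1 in 982 of the 1065 members, wholly below -0.5 in 611 (57.4%) and wholly below -1 in 118 (11.1%). Of all 4577 bins low with SCP1 it lay below -0.5 in 76.5% and below -1 in 36.0%, both higher than among the members. The SE takes positions as independent and does not cover variation between cultures. The strands hold the same reads that the rule used, so low values on both follow in large part from it. Of 934 members with at least 20 SCP1 input reads on each strand, 928 were below 0 on both, 902 (96.6%) at or below -0.5 on both and 564 (60.4%) at or below -1 on both. Among all bins low with SCP1 these last shares were 96.7% and 74.5%. The median was -1.29 on the plus strand and -1.26 on the minus strand. If the SCP1 library was read from both ends, both strands share their molecules; this was not tested. Counting distinct positions in place of reads brought the members' median SCP1 activity to -0.58, with 1033 below 0 and 191 at or below -1. The median was 0.08 with pPGK and 0.12 with pR-Ea on that count.

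Beside the members, SCP1 activity was lower than elsewhere. Each read falls in 1 bin, by the midpoint of its fragment, so the reads of a touching bin did not choose the member beside it. The fragments of touching bins can overlap in sequence, though, and the members' own choice used the same libraries. Of the 1065 members, 431 (40.5%) touched another measurable bin, and these touching bins numbered 460, of which 34 were members themselves. Their median SCP1 activity was -0.55, against -0.14 for the 16153 bins that touch any measurable bin. Below 0 with SCP1 were 368 of the 460 (80.0%), against 58.3% of the 16153. At or below -1 were 106 (23.0%), against 14.7%. Without the 34 members the median of the other 426 was -0.48, and 72 (16.9%) were at or below -1, a share lowered by leaving out bins for being low.

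With the other promoters the touching bins lay closer to the background. The median pPGK activity of the 460 was -0.15 against 0.01, and their median pR-Ea activity -0.10 against -0.01. At or below -1 were 11.3% with pPGK, against 11.1% of bins that touch a measurable bin and 9.77% of all bins. With pR-Ea it was 6.52%, against 8.54% and 8.39%. Bins touching the 1186 sites low with all 3 promoters had medians of -1.79 (SCP1), -1.70 (pPGK) and -1.44 (pR-Ea), so there the neighbours, many of them in the same set, were low with each promoter. Those touching the 352 sites low with SCP1 and pPGK only had -0.93, -0.78 and -0.25.

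In 100 bp windows around the bin centre, the members' median SCP1 activity was between -1.37 and -1.29 within the bin, whose reads the rule used. It was -0.72 at 300 bp before the centre and -0.74 at 300 bp after it, where windows around all bins had -0.18 and -0.19. At 700 bp it was -0.30 before and -0.42 after, against -0.18 and -0.22. At the same distances of 300 bp, pPGK was at -0.20 and -0.12 and pR-Ea at -0.12 and -0.10. Windows around all bins had -0.07 and -0.01 with pPGK there, and -0.08 on both sides with pR-Ea. At 700 bp before the centre pPGK was at 0.04 and pR-Ea at -0.13, against 0.0002 and -0.03 around all bins. At 700 bp after it they were at -0.25 and -0.23, against -0.02 and 0.002. On that side the members were thus below all bins with each promoter. The number of members with at least 10 SCP1 input reads in a window fell from 717 at the centre to 142 and 136 at 700 bp, so the outer windows describe fewer sites. Summing reads over the members, which lets deep sites weigh most, gave another order before the bin: at 600 bp SCP1 was at -0.069 and pPGK at -0.20, and at 700 bp SCP1 was at 0.042 and pR-Ea at -0.060.

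**Figure D3:**
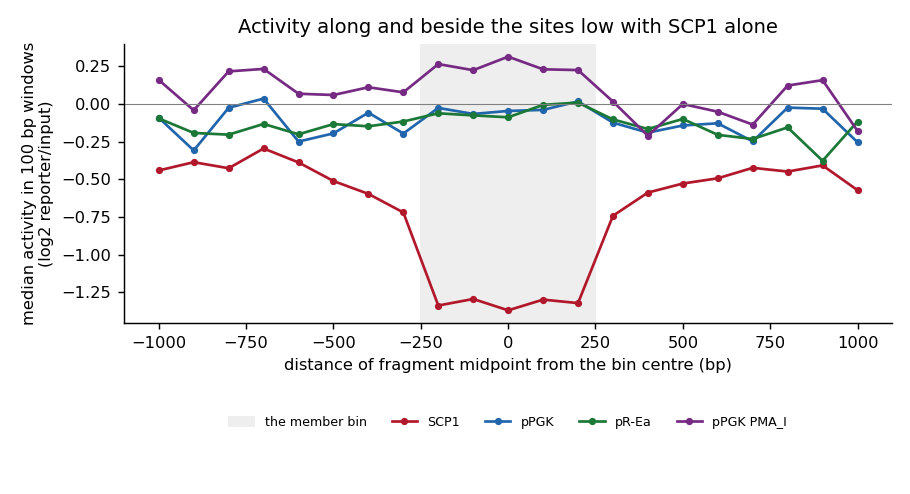
Median activity (log2 reporter over input) of the members in 100 bp windows by distance of the fragment midpoint from the bin centre, for the 4 reporter libraries, over members with at least 10 input reads in that window; the shaded span is the bin that the rule used. The SCP1 median is the lowest in each window, between -1.37 and -1.29 inside the bin and between -0.74 and -0.30 from 300 to 900 bp on both sides. It was also the lowest in each window around all measurable bins, which are not drawn.

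Joining members that touch gave 1048 sites, of which 1031 were single bins and 17 were pairs. A member could be joined only where it touched a measurable bin, as 40.5% of members and 52.5% of all bins did. Among bins touching a member 7.39% were members, against 2.67% of the 16153. The pair with the most SCP1 input reads was at chr5:26839501-26840000 and chr5:26840001-26840500. Its bins held 435 SCP1 reporter against 705 input reads and 1828 against 3062, at activities of -1.04 (SE 0.16) and -1.09 (SE 0.10). With pPGK they were at -0.15 and -0.32, with pR-Ea at 0.46 and 0.31. Both bins had many pPGK reporter reads of low mapping score, 55.6% and 25.5%, which were left out. Members were spread over the 19 autosomes and the X chromosome, with shares of measurable bins from 2.42% on chromosome 14 to 4.29% on chromosome 13.

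The lowest SCP1 values with sound support, from members with at least 200 SCP1 input reads and 5 reporter positions, were between -3.19 and -2.42. At chr5:145236001-145236500 the SCP1 library had 27 reporter reads against 200 input reads, while pPGK had 121 against 58, pR-Ea 179 against 70 and pPGK PMA_I 268 against 58. That is an SCP1 activity of -3.19 (95% counting interval -3.87 to -2.65, SE 0.59), beside -0.21, -0.10 and 1.08 in the others. The SCP1 value is 9.10-fold below input, and it stood apart from the other 3, but the pPGK reads lay on 5 reporter and 2 input positions only.

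At chr2:3837501-3838000 there were 90 SCP1 reporter reads against 500, 354 against 193 with pPGK, 427 against 126 with pR-Ea and 525 against 295 with pPGK PMA_I. The activities were -2.80 (SE 0.39), -0.38 (SE 0.23), 0.31 (SE 0.15) and -0.28 (SE 0.17). SCP1 alone was low there, and 47.3% of pPGK reporter reads were left out for a low mapping score. At chr3:111188501-111189000 the reads were 44 against 222, 325 against 150, 491 against 121 and 361 against 150 in the same order. SCP1 was at -2.65 (SE 0.45), pPGK at -0.14, pR-Ea at 0.57 and pPGK PMA_I at 0.16.

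At chr7:130296001-130296500 the SCP1 library had 64 reporter reads against 299, and pPGK had 489 against 139, pR-Ea 163 against 75 and pPGK PMA_I 677 against 139. SCP1 was at -2.55 (SE 0.59), whereas pPGK was above input at 0.55 (SE 0.18) and pPGK PMA_I at 1.17 (SE 0.18). The pPGK value was 0.73 on the plus strand and -0.23 on the minus strand, and 0.01 by distinct positions. The fifth, chr10:20067001-20067500, held 83 against 383, 219 against 115, 206 against 74 and 151 against 115. Its SCP1 activity was -2.53 (SE 0.59), with -0.33, 0.03 and -0.72 in the others; its pPGK value was -1.97 on the plus strand and -0.02 on the minus strand, so its strands differed with pPGK.

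The other 3 of these 8 sites were chr7:51691501-51692000, chr12:107603501-107604000 and chr19:23706001-23706500. The first had 50 SCP1 reporter reads against 228 input reads, the second 44 against 201 and the third 71 against 302. Their SCP1 activities were -2.51 (SE 0.38), -2.51 (SE 0.57) and -2.42 (SE 0.34). With pPGK they were at 0.23, 0.12 and 0.13, with pR-Ea at -0.22, -0.26 and -0.06, and in pPGK PMA_I at 0.58, 0.36 and 0.76. SCP1 was lowest of the 4 libraries in each of the 8 sites. By distinct positions all 8 stayed below 0 with SCP1, from -2.17 to -0.53. The rule used the SCP1, pPGK and pR-Ea values, so their order at these sites is no finding.

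The deepest members were all near the threshold. The 8 members with the most SCP1 input reads had SCP1 activities from -1.13 to -1.01. The first, chr17:39983001-39983500, stood far above the rest in depth, with 47409 SCP1 reporter and 75450 input reads, 28916 and 16452 with pPGK, 69631 and 24431 with pR-Ea, and 30380 reporter and 18805 input reads in pPGK PMA_I. SCP1 was at -1.01 (SE 0.06), pPGK at -0.44 (SE 0.07), pR-Ea at 0.07 (SE 0.03) and pPGK PMA_I at -0.41 (SE 0.07). With pPGK it was at 0.02 on the plus strand and -1.13 on the minus strand, and by distinct positions its SCP1 value was 0.13.

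At chr1:172773501-172774000 the reads were 5099 against 8806 with SCP1, 5736 against 2133 with pPGK, 11475 against 3013 with pR-Ea and 8002 against 2205 in pPGK PMA_I. SCP1 was at -1.13 (SE 0.10), and the others were above input at 0.17 (SE 0.08), 0.49 (SE 0.05) and 0.75 (SE 0.06). Both strands gave low SCP1 values there, -1.05 and -1.20, and reads were spread over 322 reporter and 394 input positions. By distinct positions, though, SCP1 was only at -0.14 and pR-Ea at -0.07. The pPGK value was 0.32 on the plus strand and -0.16 on the minus strand. Counted by reads, this site had the lowest SCP1 value of the 8 deepest members. At chr5:112130501-112131000 SCP1 had 3898 against 6252 reads, at -1.02 (SE 0.09), with 0.22, -0.06 and 0.30 in pPGK, pR-Ea and pPGK PMA_I.

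At chr6:52266501-52267000 the reads were 2136 against 3564 with SCP1, 2235 against 655 with pPGK, 4524 against 1181 with pR-Ea and 1928 against 707 in pPGK PMA_I. SCP1 was at -1.08 (SE 0.19), against 0.52 (SE 0.25), 0.50 (SE 0.06) and 0.34 (SE 0.19). Its pR-Ea value was close on both strands, 0.51 and 0.48, while pPGK was at 1.32 on the plus and -1.20 on the minus strand. Among members with at least 200 input reads in each of the 3 files this site also had the highest sum of pPGK and pR-Ea activity. Next by that sum came chr11:49715001-49715500, at -1.04 in SCP1, 0.17 in pPGK and 0.70 in pR-Ea, and chr9:48303501-48304000, at -1.01, 0.19 and 0.66. In both, pR-Ea was the highest of the 3 promoters.

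Among the deepest members, chr4:136025501-136026000 was at -1.04 with SCP1 but also below input with pPGK (-0.48), pR-Ea (-0.23) and in pPGK PMA_I (-0.61). At chr2:91222001-91222500 SCP1 was at -1.06 (SE 0.14) from 1697 against 2784 reads, and the others were at -0.09, 0.21 and 0.01. The bin at chr2:98505001-98505500 was an exception in quality: 87.6% of its pPGK reporter reads had a low mapping score, and its SCP1 value of -1.07 was 0.27 on the plus strand and -1.14 on the minus strand. The seventh was the second bin of the pair on chromosome 5 given above.

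The pPGK PMA_I reporter is the 1 library whose reads the rule did not use. PMA is a phorbol ester and ionomycin a calcium ionophore, a pair in common use to activate T cells without their receptor. The pPGK PMA_I activity is divided by the pPGK input, which did enter the rule, so it is not independent of the pPGK values. That input was counted at the positions used in the pPGK PMA_I file, which differ from those used in the pPGK file. In the measurable bins it came to 14579741 reads, against 11388531 for pPGK. In the members the pPGK PMA_I activity ran from -2.59 to 2.25 with a median of 0.35 (quartiles -0.04 and 0.71), against 0.28 in all bins. The members' median fell with SCP1 input depth, from 0.54 at 50 to 99 reads to -0.005 at 1000 or more. The members were shallower than all bins, so these medians compare sets of unlike depth. At or below -1 were 16 members (1.5%), where all bins had 7.63%, and at or above 1 were 133 (12.5%), where all bins had 14.6%. In the sites low with SCP1 and pPGK only, 51.1% were at or below -1 in pPGK PMA_I, and in those low with all 3 promoters 78.2%. The pPGK threshold separates the members from both other sets. Those sets share the same pPGK threshold, at or below -1, and differ by rule in pR-Ea only. Their median pPGK activity was -1.36 in the sites low with SCP1 and pPGK only and -2.13 in those low with all 3. The cause of the step between them in pPGK PMA_I was not tested. The score filter moved the level: at positions that no file lists below 30 the median was 0.13 in 1029 members and 0.06 in all bins.

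**Figure D4:**
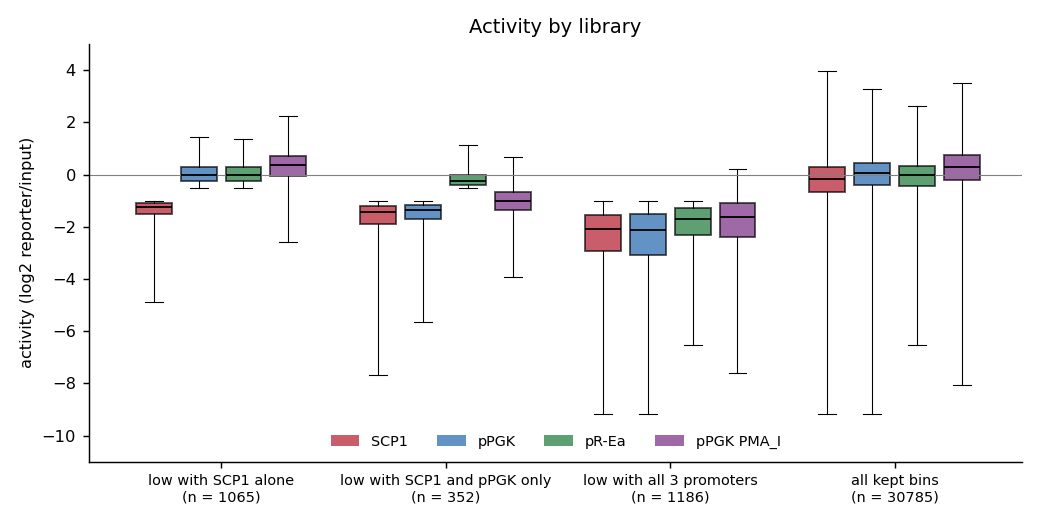
Activity (log2 reporter over input) in the 4 reporter libraries for the 1065 members, the 352 sites low with SCP1 and pPGK only, the 1186 low with all 3 promoters and all 30785 measurable bins. Boxes give quartiles and the median, whiskers the lowest and highest bin; pPGK PMA_I, unused by the rule, has a median of 0.35 in the members and of 0.28 in all bins.

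Reporter reads in pPGK PMA_I were close to those in pPGK at most members. The median log2 ratio was 0.09, against 0.02 in all bins. At least 2-fold higher were 6 members (0.563%), where all bins had 1.36%, and at least 2-fold lower were 4 (0.376%), where all bins had 0.65%. Both shares were below the background here, but both counts depend on the score filter. With no score filter 88 members (8.27%) were higher and 44 (4.14%) lower, where all bins had 6.14% and 3.66%. With positions under a score of 30 in any file dropped, 2 were higher and 7 (0.68%) lower, where all bins had 0.992% and 0.496%. By distinct positions 20 (1.88%) were lower, where all bins had 0.932%. The 6 included chr11:97769001-97769500, from 1977 to 4690 reads (log2 1.04), where activity was -0.34 with pPGK and 0.69 in pPGK PMA_I. At chr14:87649501-87650000 reads went from 136 to 424 (log2 1.42), but activity was 0.04 with pPGK and 0.05 in pPGK PMA_I. At chr11:23351001-23351500 they went from 389 to 1061, while activity was 0.65 with pPGK and 0.14 in pPGK PMA_I. The rest of the 6 were higher in activity too. The lower ones were led by chr5:147072501-147073000, from 1334 to 329 reads (log2 -2.22). These sites, the last excepted, were chosen after their values were seen.

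The lowest pPGK PMA_I activities, in members with at least 200 pPGK input reads, differed in how they moved with the score filter. At chr5:147072501-147073000 pPGK PMA_I was at -2.59 (SE 0.55) from 329 against 924 reads, beside -0.38 with pPGK, -0.47 with pR-Ea and -1.31 with SCP1. At positions that no file lists below 30 it was at -2.29, from 274 against 514 reads, and pPGK at -0.20 from 1080 against 514. So the difference between both pPGK libraries remained there when reads were counted. In the main analysis it lay on the plus strand, with pPGK at 0.20 and pPGK PMA_I at -2.46. On the minus strand both were low, at -3.60 and -3.17. By distinct positions the difference was lost, with pPGK at -0.78 and pPGK PMA_I at -0.59. The bin at chr2:98505001-98505500 had 10505 against 20389 reads in pPGK PMA_I and was at -2.06. With pPGK it had 5429 against 3028 reads, so the input counted for both libraries was unlike there. At positions that no file lists below 30 pPGK PMA_I was at -2.25, from 706 against 1288 reads. With pPGK the bin was then at -0.47, from 2244 against 1288.

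The other 2 were chr4:154429001-154429500, at -1.40 (SE 0.35), and chr13:67455001-67455500, at -1.28 (SE 0.19). At positions that no file lists below 30 the first of them was at -0.51, beside a pPGK value of -0.46. Its low value was thus lost, and the other was at -1.32. Their pPGK reporter reads of low mapping score made up 61.5% and 75.8%. Both had SCP1 activities close to the threshold, -1.0 and -1.03.

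At the other end, chr16:66207501-66208000 had 1716 reporter against 252 input reads in pPGK PMA_I, an activity of 1.66 (SE 0.21). There SCP1 had 377 against 642 reads (-1.11, SE 0.45), pPGK 1032 against 244 (0.82, SE 0.29) and pR-Ea 785 against 183 (0.66, SE 0.14). It was below input with SCP1 and above it in the other 3 libraries, on both strands in each. At chr19:44194501-44195000 pPGK PMA_I was at 1.59 (SE 0.13) and pPGK at 1.29 (SE 0.07), with SCP1 at -1.08 (SE 0.68) from 35 against 59 reads. A low mapping score left out 41.3% of its pPGK reporter reads. At positions that no file lists below 30 pPGK was at 1.30, but by distinct positions it was at -0.02. The SCP1 value there is too thin to place it firmly.

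At chr18:67418501-67419000 pPGK PMA_I was at 1.51 (SE 0.26) and pPGK at 1.21 (SE 0.18), while SCP1 was at -1.18 (SE 0.68) from 85 against 153 reads. Its SCP1 value was 0.16 on the plus strand and -1.82 on the minus strand. With pPGK 39.8% of its reporter reads lay at the top position, and by distinct positions pPGK was at -0.15. At chr9:42008001-42008500 SCP1 was at -1.86 (SE 0.58) from 60 against 174 reads, with 0.65 (SE 0.31) for pPGK, -0.07 (SE 0.21) for pR-Ea and 1.24 (SE 0.15) for pPGK PMA_I. Of these 4 sites, chr16 and chr9 kept a SCP1 interval over positions below 0.

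Of the 3 sets, the members were the shallowest. The median SCP1 input was 232 reads in the members, 515 in the sites low with SCP1 and pPGK only and 401 in those low with all 3. The median pPGK input was 126, 233 and 333 reads, and the median pR-Ea input 107, 209 and 255. The position with the most reads held 14.8% of the SCP1 input in the median member, against 7.66% and 7.09% in the other sets. The median share of pPGK reporter reads left out for a low mapping score was 3.0% in the members, 3.40% in the sites low with SCP1 and pPGK only and 19.2% in those low with all 3, against 1.79% in all bins. The members were also the least low with SCP1, with a median of -1.25 against -1.44 and -2.10.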

How the data were processed

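CapStarr-seq reporter RNA and plasmid input were compared in 4 deposited files from P5424 cells. The tools named in the submitters' processing notes are Bowtie2, SAMtools and bedtools (2.28.0), and the build there is mm9; how each was run was not stated. In each deposited file a line is 1 fragment, and its score, in column 5, looks like a mapping quality. Deposited read counts, as whole numbers, fill columns 7 and 8. These were taken for reporter and input; no label states this, but column 8 was equal at all 5163548 positions shared by both pPGK files. Scores began at 0 in both pPGK files and at 30 in the others, so lines under 30 were dropped. A 5' end listed on both strands always carried equal counts and was counted once, as its minus fragment. Lines on unplaced sequences and chromosome M were left out.

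Activity is log2 of scaled reporter over input (pseudocount 1) in 500 bp bins by fragment midpoint. The profile used windows of 100 bp where 50 bp had been planned. Touching bins that are themselves members were first left out of the neighbours and then kept, a choice made after seeing the data. Intervals are exact Clopper-Pearson intervals at 95% and cover counting error only; PCR copies are not independent molecules. The SE is a delta-method error over positions. Sites named in the text are the 8 lowest with SCP1 (at least 200 input reads, 5 reporter positions), the 8 deepest, the 4 lowest and 4 highest in pPGK PMA_I and the 3 highest with pPGK and pR-Ea (at least 200 input reads), the longest run (a tie broken by depth, after values were seen) and 3 bins on each side of the threshold. The members, sets and rules were chosen with earlier results of these data known. The rule was run on simulated counts with Poisson error only, to check that planted low bins were found. That error leaves out the spread over positions, so the run gives no rate of false members. Python 3.11.15, numpy 2.4.6, pandas 2.3.3, scipy 1.17.1 and matplotlib 3.10.9 were used. Sequence motifs, tandem repeats and gene lists were planned and not run, for want of a genome of this build.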

Additional observations from a re-analysis of the deposited data

Results flagged for a closer look

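Some members were at least 2-fold below input with SCP1 and at least 2-fold above it with another promoter. This difference was not tested. There were 16 such members with pPGK (1.5% of members, where 3.85% of all bins were that high) and 8 with pR-Ea (0.751%, where 0.858% of all bins were), and 0 with both. Those with pPGK included chr11:108335501-108336000, at -2.75 with SCP1 (126 input reads) and 1.17 with pPGK (67 input reads). Another was chr19:12085501-12086000, at -2.10 (87) and 1.07 (131). Those with pR-Ea included chr9:48643001-48643500, at -2.09 with SCP1 (197 input reads) and 1.01 with pR-Ea (54 input reads). Another was chr15:100701501-100702000, at -1.46 (387) and 1.37 (54). These examples were picked after their values were seen. The thinnest of these inputs lay near the floor of 50 reads, which leaves such values uncertain.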

How the results depend on the processing

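No paired analysis was possible because each group holds 1 library. The members numbered 1065, and 8 of the alternatives kept that number within 1.5 times (936 to 1189). It was 2963 with at least 20 input reads, 176 with at least 200 (163 of them shared with the 1065), 630 with each library's median set to 0 (623 shared), 585 by distinct positions (169 shared), 2064 and 273 at SCP1 thresholds of -0.75 and -1.5, and 290 with both other promoters above 0. It was 462 on the plus strand alone, 506 on the minus strand alone, and 611 with the SCP1 interval wholly below -0.5. The pR-Ea input in place of every input, an alternative chosen after seeing the data as was keeping plus fragments (1067 members), gave 4060 members, of which 644 were shared. The number of measurable bins changed as well, so these counts are not shares of the same total. It was 30785 in the main analysis, 50659 at 20 input reads and 11654 at 200. On the plus strand it was 17827, on the minus strand 18913, and with the pR-Ea input 39420. Which bins were members thus depended on whether reads or positions were counted and on the input used.

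The 16 members low in pPGK PMA_I became 45 with no score filter, 48 at 20 input reads and 3 at 200, 3 by distinct positions (0 with the members kept), 3 at the SCP1 threshold of -1.5, 3 with the others above 0, 9 on the minus strand and 78 with the pR-Ea input. The number of members changed with these settings: as a share of each setting's own members the count was 1.5% in the main analysis, 3.79% with no score filter and between 0.513% and 2.6% in the others, where all bins had from 1.25% to 27.4%. Against pPGK, the 6 higher and 4 lower members became 88 and 44 with no score filter. They became 2 and 7 where positions under 30 in any file were dropped, a choice made after seeing the data for these members, and 20 were lower by distinct positions.

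The members' median activities moved as follows. With no score filter pPGK was at 0.073 and pPGK PMA_I at 0.59. For pPGK PMA_I it was 0.13 with positions under 30 in any file dropped, 0.46 with every line counted and 0.30 at 20 input reads. At 200 input reads SCP1 was at -1.12, pPGK at -0.15, pR-Ea at -0.10 and pPGK PMA_I at 0.12. A pseudocount of 5 gave -1.22 with SCP1 and -0.047 with pR-Ea. With medians set to 0, SCP1 was at -1.09, pPGK at -0.071 and pPGK PMA_I at 0.072. Bins shifted by 250 bp gave -1.10, -0.061 and 0.20 in that order. By distinct positions the 4 libraries were at -0.58, 0.084, 0.12 and 0.092 (SCP1, pPGK, pR-Ea, pPGK PMA_I), and without the top reporter position at -1.35, -0.044, -0.083 and 0.26. The plus strand gave -1.23 with SCP1, -0.067 with pR-Ea and 0.11 with pPGK PMA_I, and the minus strand -1.20, -0.032, -0.075 and 0.39 in the 4 libraries. With the pR-Ea input SCP1 was at -1.60, pPGK at 0.27 and pPGK PMA_I at 0.39.

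Of the values of single named sites, 368 stayed within their counting interval and 153 fell outside it. A further 8 changed sign from a main value at or above 1 or at or below -1. Smaller values that changed sign were counted with the others. SCP1 at chr19:44194501-44195000 was 0.77 in shifted bins and 0.49 by distinct positions. By distinct positions it was also 0.13 at chr17:39983001-39983500, 0.18 at chr2:98505001-98505500 and 0.15 at chr5:26839501-26840000. At chr7:16961501-16962000, just outside the threshold, SCP1 went from -0.998 to 0.15 by distinct positions and was counted among the 153. On the plus strand, chr2:98505001-98505500 was at 0.27 with SCP1 and chr4:154429001-154429500 at 0.34 in pPGK PMA_I. With the pR-Ea input, chr2:98505001-98505500 was at 0.60 in pPGK PMA_I. The cause of these moves was not tested. The planned sequence features were not run.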
